A study of Drosophila melanogaster with 9 samples.

Results

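The genes described here stand under a CG number in the array annotation and gave their lowest signal in the meiotic region of the Drosophila testis. Some of them carry other names as synonyms. A probe set, the group of probes on the array that reads 1 transcript or gene, was a member when the array annotation gave it exactly 1 symbol made of CG and digits, and when its mean over the 3 meiotic arrays lay at least 1 log2 unit (2-fold or more) below its mean in mitosis and also below its mean in post-meiosis. Of 5667 probe sets for CG-numbered genes, 77 met the rule. They stand for 74 of 5209 CG-numbered genes, within 18769 probe sets and 11982 genes with a symbol in the whole table.

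RNA came from testes of virgin males of a wild-type strain, TEMPE T, which the study's methods describe as free of Wolbachia. Males were kept at room temperature until they were 6 to 10 days old, and seminal vesicles were removed. The mitotic sample is the apical tip, the meiotic sample is what was pressed out of the middle (proximal) region, and the post-meiotic sample is the detached distal region. Each phase has 3 biological replicates of 250 to 500 dissections, each hybridized to an Affymetrix Drosophila Genome 2.0 array, and values are log2 hybridization intensities. Pooled tissue was used for every replicate, and no genotype or treatment differs between phases. Each region mixes germ cells of neighbouring stages with somatic cells, but not necessarily in equal parts. According to the paper, dissection freed the spermatocytes from the sheath around the testis. It names a missing sheath as an example of how the meiotic sample could hold less somatic tissue than the mitotic one. The paper considers a major effect on its comparison of X and autosomes unlikely. As evidence it gives the same comparison among genes higher in testis than in ovary. It adds a contrast of autosomal gene copies that were retroposed from the X or from other autosomes.

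Spermatogenesis starts at the apical tip, where germline stem cells next to the hub divide and spermatogonia multiply inside somatic cyst cells. Primary spermatocytes then grow, transcribe most of the messages that sperm will need, and enter meiosis. Spermatids elongate and individualize in the distal testis, where they lie close to the terminal epithelium and are enclosed by a sheath of muscle and pigment cells. A CG number is the identifier given to a predicted fly gene before it has a name from a mutant or a known function, so the known role of many of these genes goes no further than the protein family.

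The arrays of a phase resembled each other closely, with Pearson's r across all probe sets of 0.993 to 0.998. The median log2 intensity of an array lay between 6.36 and 6.54. Dissected regions were compared, so fewer cells of a type and less RNA per cell cannot be told apart in any value below. The signal of a probe set depends on its probes, so phases are compared within a probe set, and a brighter probe set does not stand for a more abundant transcript. With 3 arrays per phase the smallest p of an exact test is 0.1, so the tests come from a fit across all probe sets.

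The rule itself was met by 2.84% of all probe sets and by 1.36% of those for CG-numbered genes. Among the 7980 probe sets with another kind of symbol, 350 (4.39%) passed the same thresholds, and 106 more had no symbol or several. Mitotic means of the 77 members exceeded their meiotic means by 1.01 to 4.15 on the log2 scale with a median of 1.49, which is a median of 2.81-fold. Post-meiotic means exceeded meiotic means by 1.01 to 6.73 with a median of 2.43, or 5.38-fold. These differences chose the members and are given as a description, without a test. In all 77, each of the 3 meiotic arrays was below each of the other 6 arrays, a separation that was seen in 9.81% of all probe sets and 7.15% of those for CG-numbered genes and that thresholds of this size nearly fix. Marker genes of the muscle sheath around the testis shared this minimum, with 11 of 13 measured genes lowest in meiosis (19.8% of all probe sets), and the part of sheath RNA in the values of the members was not tested.

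**Figure D1:**
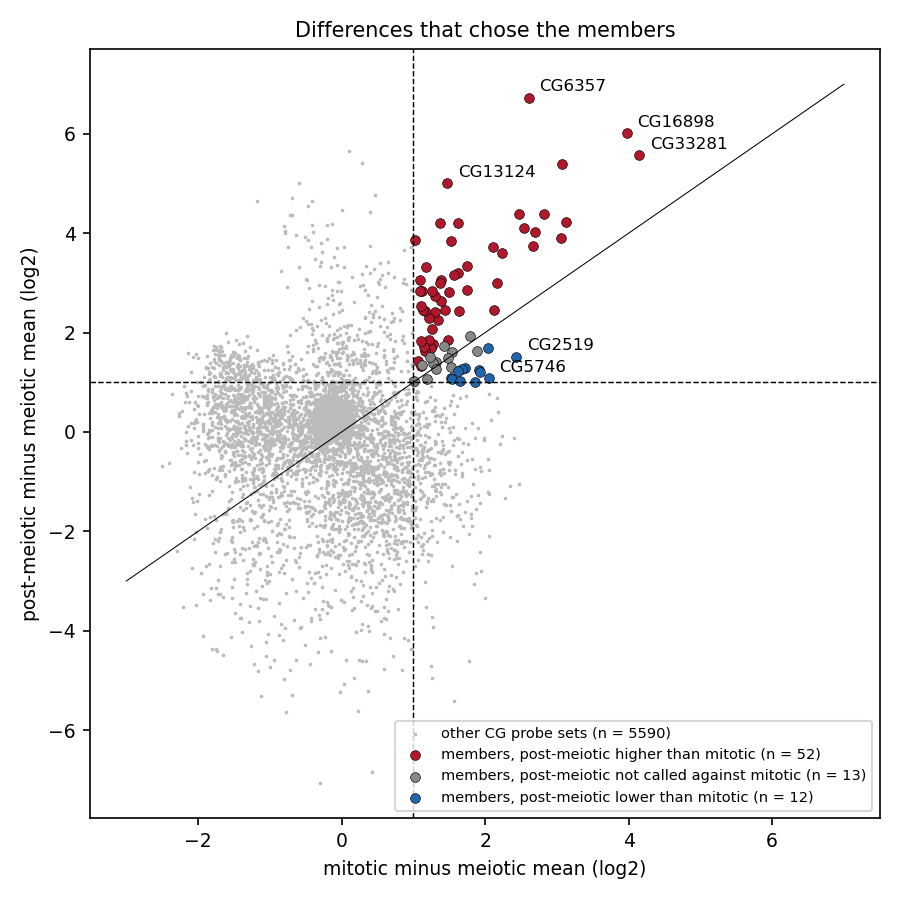
Mitotic minus meiotic mean on the x axis against post-meiotic minus meiotic mean on the y axis, both in log2 units, for 5667 probe sets of CG-numbered genes. The dashed lines are the thresholds of 1 and the solid line marks equal differences. The 77 members lie in the upper right, coloured by the comparison of post-meiosis with mitosis (52 higher, 13 not called, 12 lower), and CG6357 stands at 2.61 and 6.73.

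The meiotic means of the members ran from 3.91 to 9.88 with a median of 6.18, their mitotic means from 5.53 to 11.37 (median 7.97) and their post-meiotic means from 5.55 to 11.74 (median 8.82). Replicates were tight, with median SDs of 0.13, 0.14 and 0.18 for the mitotic, meiotic and post-meiotic arrays. The highest SD was 0.76, for a probe set of CG3301 in post-meiosis.

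**Figure D2:**
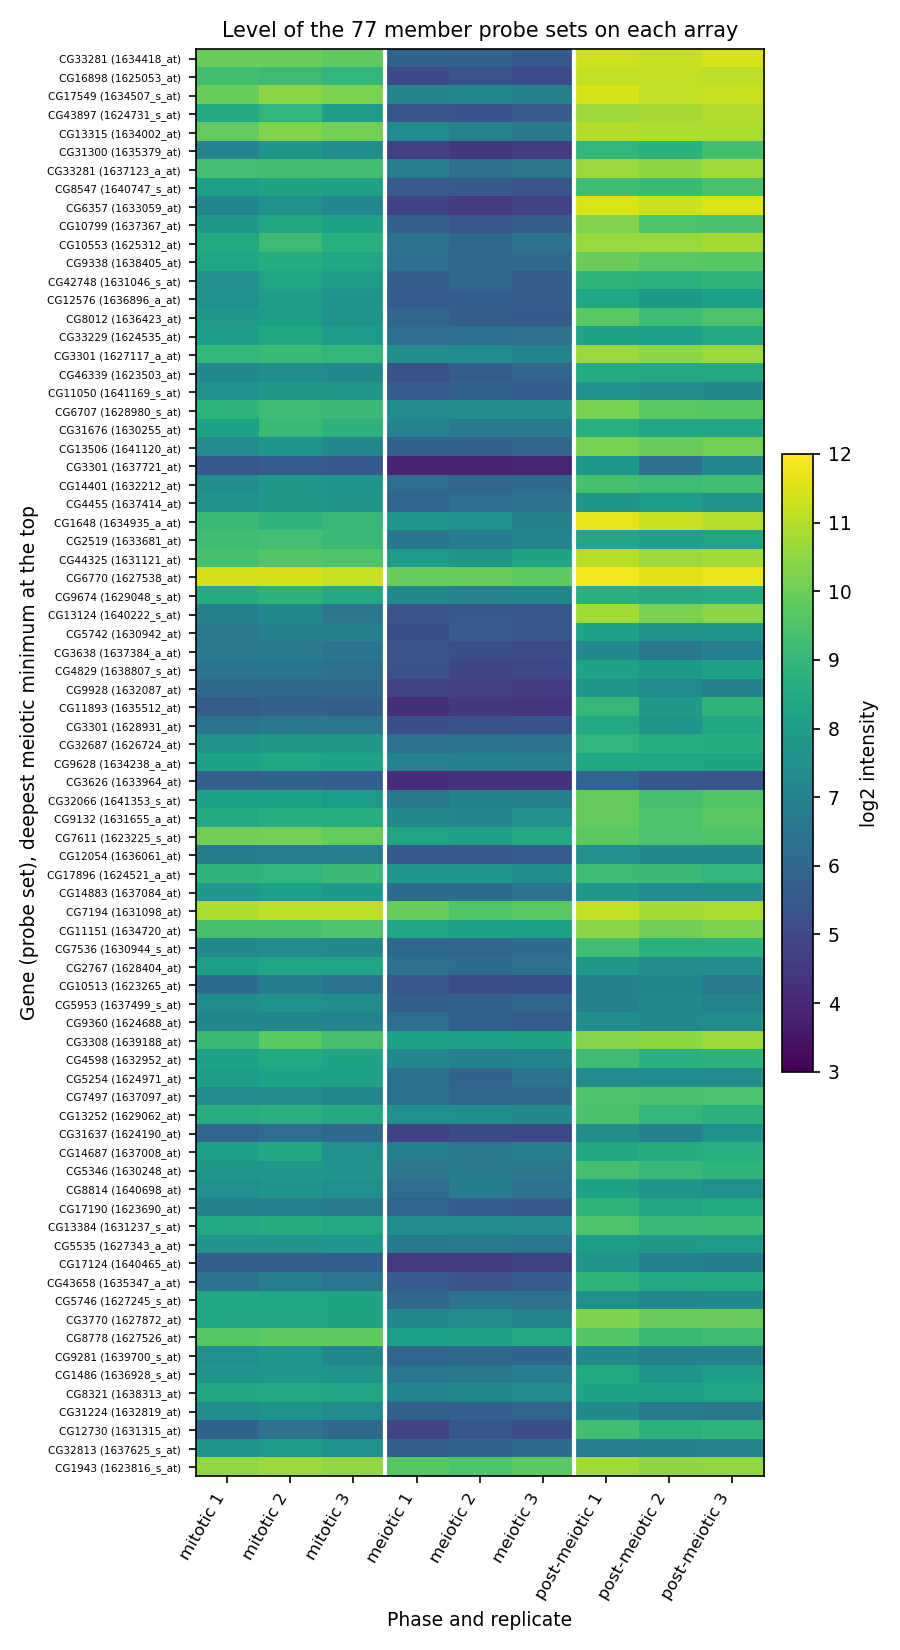
Log2 intensity of the 77 member probe sets (rows) on each of the 9 arrays (columns, 3 per phase, separated by white lines), with the deepest meiotic minimum at the top. The 3 meiotic columns are darker than the other 6 in every row, and the deepest rows belong to CG33281 and CG16898.

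Depth is used here for the smaller of the 2 differences of a member. Its median was 1.32, and the values nearest to the threshold show how gradual the limit is. CG1943 (mitotic, meiotic and post-meiotic log2 means of 10.58, 9.58 and 10.60) and CG32813 (7.78, 5.92 and 6.93 in the same order) were just inside, each with a depth of 1.01. CG10433, on arm 2R (8.26, 7.27 and 9.26), and the X-linked CG4558 (6.81, 5.82 and 7.19) were just outside, each with a depth of 0.99.

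The deepest minimum belonged to CG33281, a gene of the sugar transporter family of membrane proteins, on arm 2L. Its probe set 1634418_at gave 9.95, 9.95 and 9.82 on mitotic, 5.90, 5.88 and 5.50 on meiotic and 11.34, 11.22 and 11.45 on post-meiotic arrays. The meiotic arrays thus lay 17.8-fold below mitosis and 47.7-fold below post-meiosis on average, and no phase overlapped another. A different probe set of the same gene, 1637123_a_at, gave 9.30, 9.27 and 9.29 on mitotic, 6.86, 6.34 and 6.61 on meiotic and 10.63, 10.49 and 10.74 on post-meiotic arrays. Post-meiosis was higher than mitosis by 1.43 (SE 0.11, limma adjusted p = 7.0e-08) on 1634418_at and by 1.33 (SE 0.12, adjusted p = 2.6e-07) on 1637123_a_at. Under cyclic loess between arrays, a scaling other than the deposited one, these values were 2.18 and 2.11.

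Next in depth came CG16898 on arm 2R, a gene of the ecdysteroid kinase-like family whose synonym in the reference table is Dro26-1. It gave 9.27, 9.18 and 8.91 on mitotic, 4.98, 5.35 and 5.10 on meiotic and 11.19, 11.16 and 11.11 on post-meiotic arrays. The meiotic arrays were 15.8-fold below mitosis and 64.5-fold below post-meiosis, and post-meiosis exceeded mitosis by 2.03 (SE 0.11, limma adjusted p = 1.9e-09). CG31300 on 3R, of the same family (Dro5-1), gave 7.04, 7.78 and 7.43 on mitotic, 4.71, 4.46 and 4.61 on meiotic and 8.94, 8.71 and 9.29 on post-meiotic arrays. Its phases did not overlap, and the post-meiotic excess over mitosis was 1.56 (SE 0.17, adjusted p = 2.8e-06).

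CG6357 encodes a protein of the papain-type cysteine peptidase family and had the largest post-meiotic excess of all members. On the 3 mitotic arrays it gave 7.14, 7.62 and 7.21, on the meiotic arrays 4.72, 4.58 and 4.83, and on the post-meiotic arrays 11.50, 11.32 and 11.49. Post-meiosis was thus 106-fold above meiosis and 17.4-fold above mitosis, with a log2 difference of 4.12 from mitosis (SE 0.12, limma adjusted p = 7.1e-12). All 3 post-meiotic arrays were more than 3 log2 units above the highest mitotic array.

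A further 5 of the deepest minima belonged to genes given here without a role. CG43897 gave 8.51, 8.91 and 8.06 on mitotic, 5.41, 5.28 and 5.59 on meiotic and 10.69, 10.77 and 10.98 on post-meiotic arrays. CG17549 gave 9.99, 10.43 and 10.21 on mitotic, 7.11, 7.18 and 6.94 on meiotic and 11.44, 11.18 and 11.29 on post-meiotic arrays. In both genes the 3 phases were fully separated, with meiosis at the bottom and post-meiosis at the top. CG13315 averaged 10.08 ± 0.24, 7.01 ± 0.37 and 10.91 ± 0.05 in the 3 phases in developmental order (SD, n = 3 each). CG8547 averaged 8.16 ± 0.10, 5.49 ± 0.11 and 9.24 ± 0.18, and CG10799 averaged 8.17 ± 0.27, 5.62 ± 0.15 and 9.72 ± 0.49. All 5 were higher in post-meiosis than in mitosis, by 0.84 (CG13315, limma adjusted p = 0.00039) to 2.32 (CG43897, adjusted p = 4.1e-08). Under cyclic loess the value was 1.51 for CG13315 and 1.71 for CG17549, in place of 0.84 and 1.09.

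The rule left free how the post-meiotic level compared with the mitotic one, and this was tested. Of the 77 members, 52 (67.5%) were higher in post-meiosis than in mitosis, 12 (15.6%) were lower and 13 were not called (limma, adjusted p under 0.05). Over all 18769 probe sets, 49.6% were higher and 29.5% lower, and over the probe sets of CG-numbered genes 55.0% and 28.4%. These background shares depend on the scaling of the arrays and on the probe sets kept. Among probe sets with a mean of at least 6 over all arrays, 44.7% were higher and 46.0% lower, while 50 of 74 members were higher and 12 lower. With cyclic loess between arrays in place of the deposited scaling, 31.3% of all probe sets were higher and 30.9% lower, while 60 members were higher and 9 lower.

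The member median was 0.85 on the log2 scale, against 0.21 for all probe sets and 0.29 for those of CG-numbered genes, and under cyclic loess it was 1.30 against 0.014 for all probe sets. A difference of at least 1 was reached by 37 members upward and by 0 downward, and the lowest value was -0.96. How many of all probe sets reached this size was not counted, so these counts have no background. A fall of this size needs a mitotic mean further above meiosis than the rule asks for, and a rise needs the same of post-meiosis. Member medians above meiosis were 1.49 for mitosis and 2.43 for post-meiosis, so the counts are a description. All 3 post-meiotic arrays were above all 3 mitotic arrays in 50 members (51.1% of all probe sets) and below them in 11 (29.6%), and the arrays overlapped in 16. Probe sets with another kind of symbol that passed the same thresholds were called higher in 187 of 350 cases (53.4%), lower in 64 (18.3%) and not called in 99, with a median of 0.46.

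The 15 members with a depth of 2 or more were all called higher in post-meiosis, whereas the 62 shallower ones divided into 37 higher, 12 lower and 13 not called. Depth and the post-meiotic excess share arrays, so this division is a description. The probe sets of CG33281, CG16898 and CG17549 are among the deep ones, and CG5746 and CG2519 among the shallow ones.

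**Figure D3:**
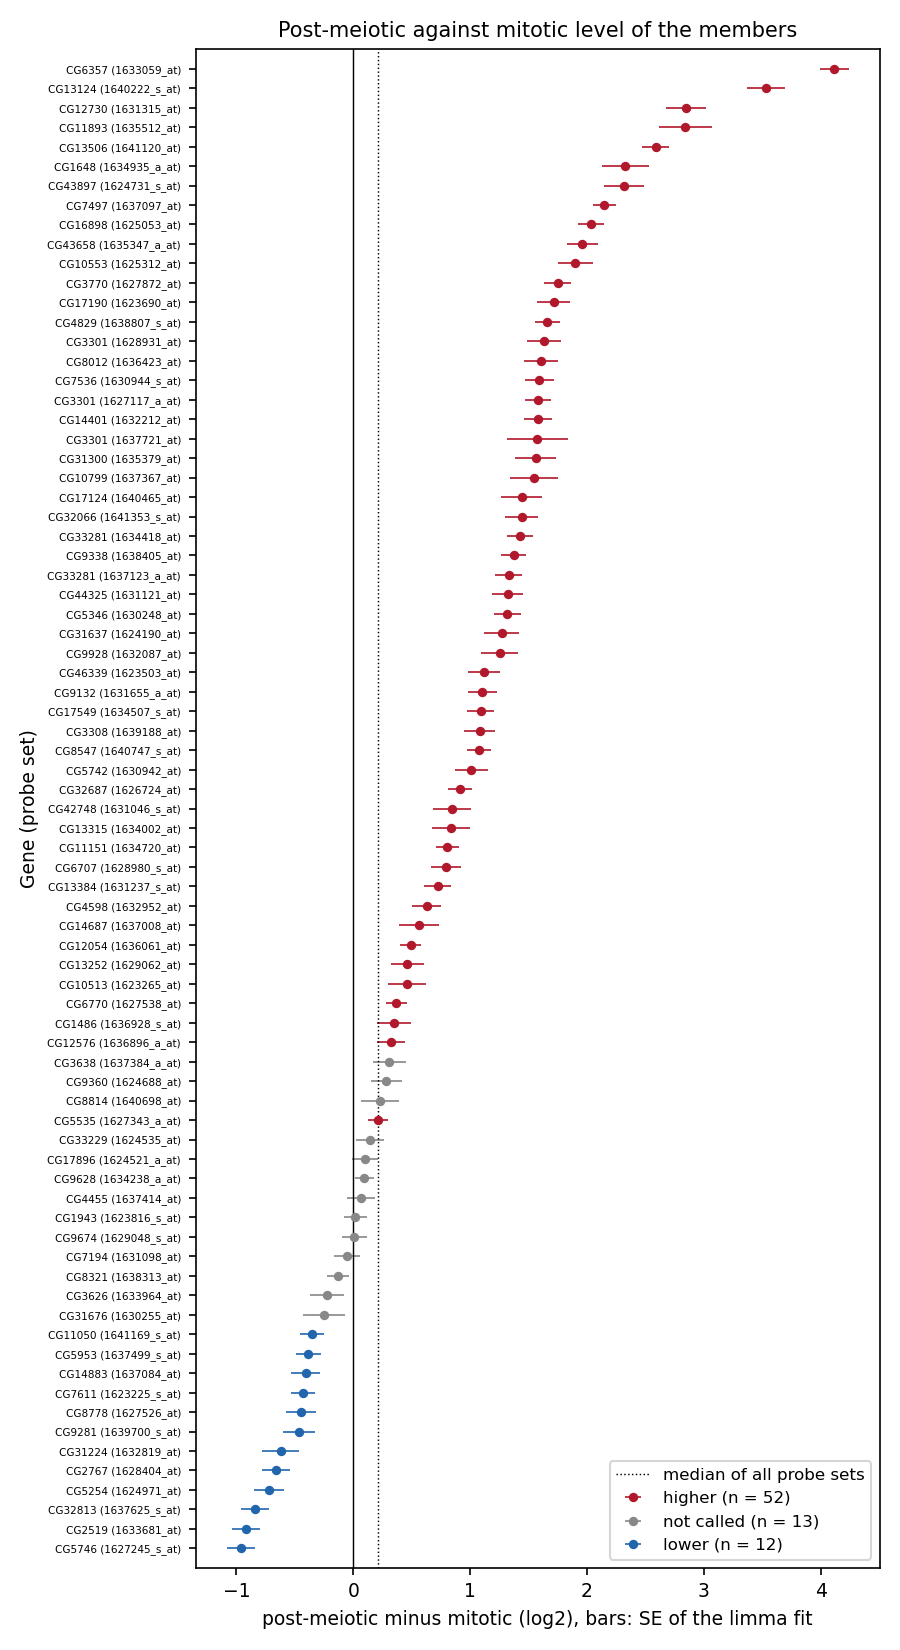
Post-meiotic minus mitotic mean (log2, x axis) of each member probe set, ordered by size, with bars of the standard error of the limma fit over 9 arrays. The dotted line is the median of all probe sets (0.21). Values run from -0.96 (CG5746) to 4.12 (CG6357), with 52 higher, 13 not called and 12 lower.

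After CG6357, the largest post-meiotic excess was that of CG13124 on arm 2L. It gave 6.93, 7.27 and 6.58 on mitotic, 5.36, 5.55 and 5.44 on meiotic and 10.74, 10.20 and 10.43 on post-meiotic arrays. Its post-meiotic mean exceeded the mitotic one 11.6-fold, a log2 difference of 3.53 (SE 0.16, limma adjusted p = 3.2e-10), although its mitotic mean was only 2.78-fold above meiosis.

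CG12730, an X-linked gene, followed the same pattern. Its arrays read 5.92, 6.41 and 6.07 on mitotic, 4.81, 5.40 and 5.13 on meiotic and 9.28, 8.79 and 8.87 on post-meiotic arrays. The step between mitosis and meiosis (1.02) was just over the threshold and the post-meiotic excess over mitosis was 2.85 (SE 0.17, limma adjusted p = 4.0e-09).

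The ecdysteroid kinase-like gene CG11893 (Dro5-6) gave 5.67, 5.77 and 5.73 on mitotic, 4.22, 4.47 and 4.38 on meiotic and 8.98, 7.84 and 8.88 on post-meiotic arrays. Replicate 2 of post-meiosis was about 1 log2 unit under the other post-meiotic arrays and still above every mitotic array. The excess over mitosis was 2.84 (SE 0.22, limma adjusted p = 7.6e-08). In developmental order, CG13506 averaged 7.49 ± 0.25, 5.86 ± 0.11 and 10.08 ± 0.09, and CG1648 averaged 8.97 ± 0.09, 7.45 ± 0.44 and 11.30 ± 0.34 (SD, n = 3 each). Their excesses were 2.59 (adjusted p = 2.7e-10) and 2.33 (adjusted p = 1.7e-07).

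At the other end, 12 members were lower in post-meiosis than in mitosis while still above meiosis. CG5746 gave 8.39, 8.27 and 8.26 on mitotic, 5.99, 6.43 and 6.36 on meiotic and 7.53, 7.21 and 7.30 on post-meiotic arrays, so that post-meiosis was lower than mitosis by 0.96 on the log2 scale (difference -0.96, SE 0.12, limma adjusted p = 9.0e-06). The post-meiotic arrays lay between the other phases without overlap. CG2519 gave 9.19, 9.32 and 9.11 on mitotic, 6.48, 6.81 and 7.02 on meiotic and 8.37, 8.22 and 8.28 on post-meiotic arrays, a difference of -0.92 (SE 0.12, adjusted p = 1.4e-05). Under cyclic loess the difference of CG2519 was -0.21 and no longer passed (adjusted p = 0.151).

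CG32813 averaged 6.93 ± 0.07 in post-meiosis and 7.78 ± 0.16 in mitosis (SD, n = 3 each), with a difference of -0.84 (limma adjusted p = 2.6e-05). CG31224 averaged 6.87 ± 0.39 and 7.49 ± 0.16 (difference -0.62, adjusted p = 0.0030). The X-linked CG5254 is a mitochondrial carrier gene for oxodicarboxylates, and its protein belongs to the family that moves metabolites across the inner membrane. It averaged 7.43 ± 0.05 in post-meiosis and 8.15 ± 0.13 in mitosis, with 6.22 ± 0.31 in meiosis, so that post-meiosis was lower by 0.72 on the log2 scale (difference -0.72, SE 0.13, adjusted p = 0.00024). CG2767, an aldo-keto reductase gene, was lower by a similar amount (difference -0.66, SE 0.12, adjusted p = 0.00023), with 7.82, 7.43 and 7.41 in post-meiosis against 8.08, 8.28 and 8.30 in mitosis. Under cyclic loess the differences were smaller, at -0.44 for CG5254 (adjusted p = 0.0089) and -0.32 for CG2767 (adjusted p = 0.033).

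The remaining descriptions go by protein family, and apart from the genes already given these members were picked for their known family after their values had been seen. CG5535 and CG13384 belong to families of amino acid transporters. CG5535 was higher in post-meiosis than in mitosis by 0.21 (SE 0.09, limma adjusted p = 0.037) and CG13384 by 0.72 (SE 0.12, adjusted p = 8.3e-05). Against these small differences, both genes had all 3 post-meiotic arrays above all 3 mitotic arrays, at 8.05, 7.82 and 7.96 for CG5535 in post-meiosis and 7.68, 7.70 and 7.81 in mitosis. The call of CG5535 was lost on centred arrays (0.13, adjusted p = 0.212), with a replicate block (adjusted p = 0.051) and without mitotic replicate 1 or 2 or post-meiotic replicate 1 or 3 (0.16 to 0.20). Under cyclic loess the differences were 0.61 for CG5535 and 1.49 for CG13384.

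Among the enzymes of amino acid and fatty acid metabolism, CG9674 (glutamate synthase) and CG17896 (methylmalonate-semialdehyde dehydrogenase, of valine breakdown) had nearly equal means on either side of meiosis. CG9674 averaged 8.62 ± 0.09 in post-meiosis and 8.61 ± 0.19 in mitosis, with 7.13 ± 0.14 in meiosis (SD, n = 3 each). For CG17896 the means were 9.07 ± 0.14 in post-meiosis, 8.97 ± 0.13 in mitosis and 7.69 ± 0.18 in meiosis. Neither post-meiotic difference passed the test (0.01, limma adjusted p = 0.931, and 0.10, adjusted p = 0.396). Under cyclic loess both were called higher, by 0.73 (CG9674, adjusted p = 5.1e-05) and 0.90 (CG17896, adjusted p = 4.0e-06).

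CG8778, of the enoyl-CoA hydratase family, was lower in post-meiosis than in mitosis (difference -0.45, SE 0.13, adjusted p = 0.0073), and CG4598, which belongs to the wider hydratase and isomerase family, was higher (0.63, SE 0.12, adjusted p = 0.00046). Under cyclic loess the sign of CG8778 was turned (0.29, adjusted p = 0.059) and the difference of CG4598 was 1.33. CG4829, an X-linked gene for a gamma-glutamyltransferase, the enzyme that takes the glutamyl group off glutathione, gave 8.18, 7.89 and 8.14 in post-meiosis against 6.41, 6.49 and 6.33 in mitosis and 5.24, 4.87 and 4.95 in meiosis. Its post-meiotic arrays were 3.17-fold above mitosis and 8.30-fold above meiosis. CG3626, for the regulatory subunit of the phosphatase that activates pyruvate dehydrogenase, was dim throughout, with 5.95, 5.41 and 5.29 in post-meiosis against 5.74, 5.89 and 5.69 in mitosis and 4.13, 4.30 and 4.29 in meiosis, and its post-meiotic and mitotic arrays overlapped. The difference of -0.22 did not pass (adjusted p = 0.165), but post-meiosis was called lower under cyclic loess (-0.54, adjusted p = 0.013) and without post-meiotic replicate 1 (-0.43, adjusted p = 0.0011).

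Short-chain dehydrogenases were represented by CG3301 and CG9360, which share the synonym FOHSDR in the reference table. CG3301 entered with 3 probe sets. Its meiotic minimum was read as 8.97, 9.08 and 8.96 on mitotic, 7.43, 7.33 and 7.01 on meiotic and 10.65, 10.43 and 10.68 on post-meiotic arrays by 1627117_a_at. The other 2 were dimmer, averaging 6.57, 5.20 and 8.20 (1628931_at) and 5.53, 3.91 and 7.11 (1637721_at) in developmental order. Their post-meiotic excess over mitosis was nevertheless close, at 1.58, 1.63 and 1.58 in the order named (limma adjusted p of 2.5e-08, 3.3e-07 and 0.00011). CG9360, on the X, was not called (0.28, adjusted p = 0.061), although it was with a replicate block (adjusted p = 0.049) and without meiotic replicate 1 (0.013) or 3 (0.037) or post-meiotic replicate 2 (0.35, adjusted p = 0.045). Of the 6 measured genes with this synonym, 4 had their lowest mean in meiosis (19.8% of all probe sets), 2 of them chosen for it as members. Of the 4 that are no members, 2 were lowest in meiosis, 0 of them by at least 1 log2 unit (2.84% of all probe sets).

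Next to CG3301 on arm 3R, with no gene between, lies CG3308, a gene of the TatD family of DNases. These were the only members that adjoin each other. CG3308 gave 9.14, 9.74 and 9.40 on mitotic, 8.14, 8.23 and 8.25 on meiotic and 10.36, 10.48 and 10.69 on post-meiotic arrays. The 3 phases were separated for both neighbours, and the excess of post-meiosis over mitosis was 1.08 for CG3308 (SE 0.13, limma adjusted p = 7.5e-06; 1.74 under cyclic loess). The gene flanking CG3301 on its other side, SIFaR, had means of 5.66, 5.52 and 5.75 in developmental order, and Idi, beside CG3308, had 9.15, 8.07 and 8.02, so neither showed the pattern by 1 log2 unit.

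Several members are ecdysteroid kinase-like genes, named after an enzyme that phosphorylates moulting hormones in the silkworm. The reference table lists 51 fly genes with a Dro number, 46 of them were measured, and 5 (10.9%, against 2.84% of all probe sets past the same thresholds) are members: CG16898, CG31300, CG10553, CG11893 and CG10513. CG10553 (Dro17-1) gave 8.47, 9.18 and 8.69 on mitotic, 6.40, 6.13 and 6.38 on meiotic and 10.60, 10.66 and 10.79 on post-meiotic arrays. CG10513 (Dro2-0) was shallower, with 6.14, 6.83 and 6.46, then 5.46, 5.09 and 5.15, and then 6.96, 7.11 and 6.72, and its post-meiotic and mitotic arrays overlapped. All 5 were called higher in post-meiosis than in mitosis, by 0.46 (CG10513, limma adjusted p = 0.021) to 2.84 (CG11893). The call of CG10513 was lost under cyclic loess (0.094, adjusted p = 0.659), on centred arrays (0.37, adjusted p = 0.054) and without mitotic replicate 1 (0.29, adjusted p = 0.111) or 3 (0.45, 0.054) or post-meiotic replicate 2 (0.37, 0.083).

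Of the 41 measured family genes that are no members, 33 were higher in post-meiosis than in mitosis, 5 lower and 3 not called, with a median of 0.62 (49.6% of all probe sets higher, 29.5% lower, median 0.21). The family was read by 1 probe set per gene, and over all genes read so 46.3% were higher and 38.1% lower, with a median of 0.16. Under cyclic loess 25 of the 41 were higher, 5 lower and 11 not called, with a median of 0.33 (31.3% and 30.9% of all probe sets). Of the 41, 22 had a mean under 6 over all arrays, close to the dim end. A lowest mean in meiosis was found for 14 of all 46, against 19.8% of all probe sets, and for 19 under cyclic loess (24.1%). The run on arm 3R that holds CG10513, CG31300, CG11893 and CG10553 has 27 neighbouring genes, 26 with a Dro number and 26 measured. Of its 22 measured non-members, 6 had the lowest mean in meiosis and 16 did not, and 0 reached a depth of 1. CG13658, which sits beside the member CG11893, reached 0.67, whereas CG31099 was higher in meiosis than in mitosis by over 1 log2 unit (means of 11.71 and 10.24).

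A second neighbourhood with several members lies on arm 2L and holds genes for small GPI-anchored proteins of the Ly6 type, a fold of disulphide-linked loops displayed on the cell surface. Of 10 neighbouring genes, 9 were measured and 3 are members. CG9338 gave 8.28, 8.56 and 8.34 on mitotic, 6.30, 6.08 and 6.09 on meiotic and 9.95, 9.69 and 9.66 on post-meiotic arrays. CG14401 gave 7.44, 7.88 and 7.72 on mitotic, 6.26, 5.97 and 6.10 on meiotic and 9.36, 9.16 and 9.26 on post-meiotic arrays. For both the phases were separated, with post-meiosis above mitosis by 1.38 (SE 0.11, limma adjusted p = 6.8e-08) and 1.58 (SE 0.12, adjusted p = 3.9e-08). CG31676 averaged 8.45 ± 0.21 in post-meiosis and 8.70 ± 0.43 in mitosis, where the arrays overlapped, with 6.81 ± 0.16 in meiosis (difference -0.25, adjusted p = 0.210). This sign was turned under cyclic loess (0.42, adjusted p = 0.052), while without mitotic replicate 1 post-meiosis was called lower (-0.49, adjusted p = 0.0081). For CG9338 the difference under cyclic loess was 2.09.

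Genes between these members did not all behave alike. The Ly6 gene bero, which lies next to CG9338 and has a name and so falls outside the rule, averaged 9.50, 7.94 and 12.55 in developmental order, a minimum with a depth of 1.56. Its near neighbours twit (7.03, 7.31 and 7.97) and CG14402 (9.17, 10.73 and 12.09) had no minimum in meiosis, CG14400 stayed between 5.49 and 5.67, and CG31675, which sits between CG9338 and CG14401, between 5.84 and 6.20. A list of named Ly6-type genes, which did not include bero, had 7 measured genes. Of these 7, 0 had a meiotic minimum with a depth of 1 (2.84% of all probe sets), although 4 had their lowest mean in meiosis (19.8%). In post-meiosis, 3 of the 7 were higher than in mitosis, 2 were lower and 2 were not called (49.6% of all probe sets higher, 29.5% lower).

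**Figure D4:**
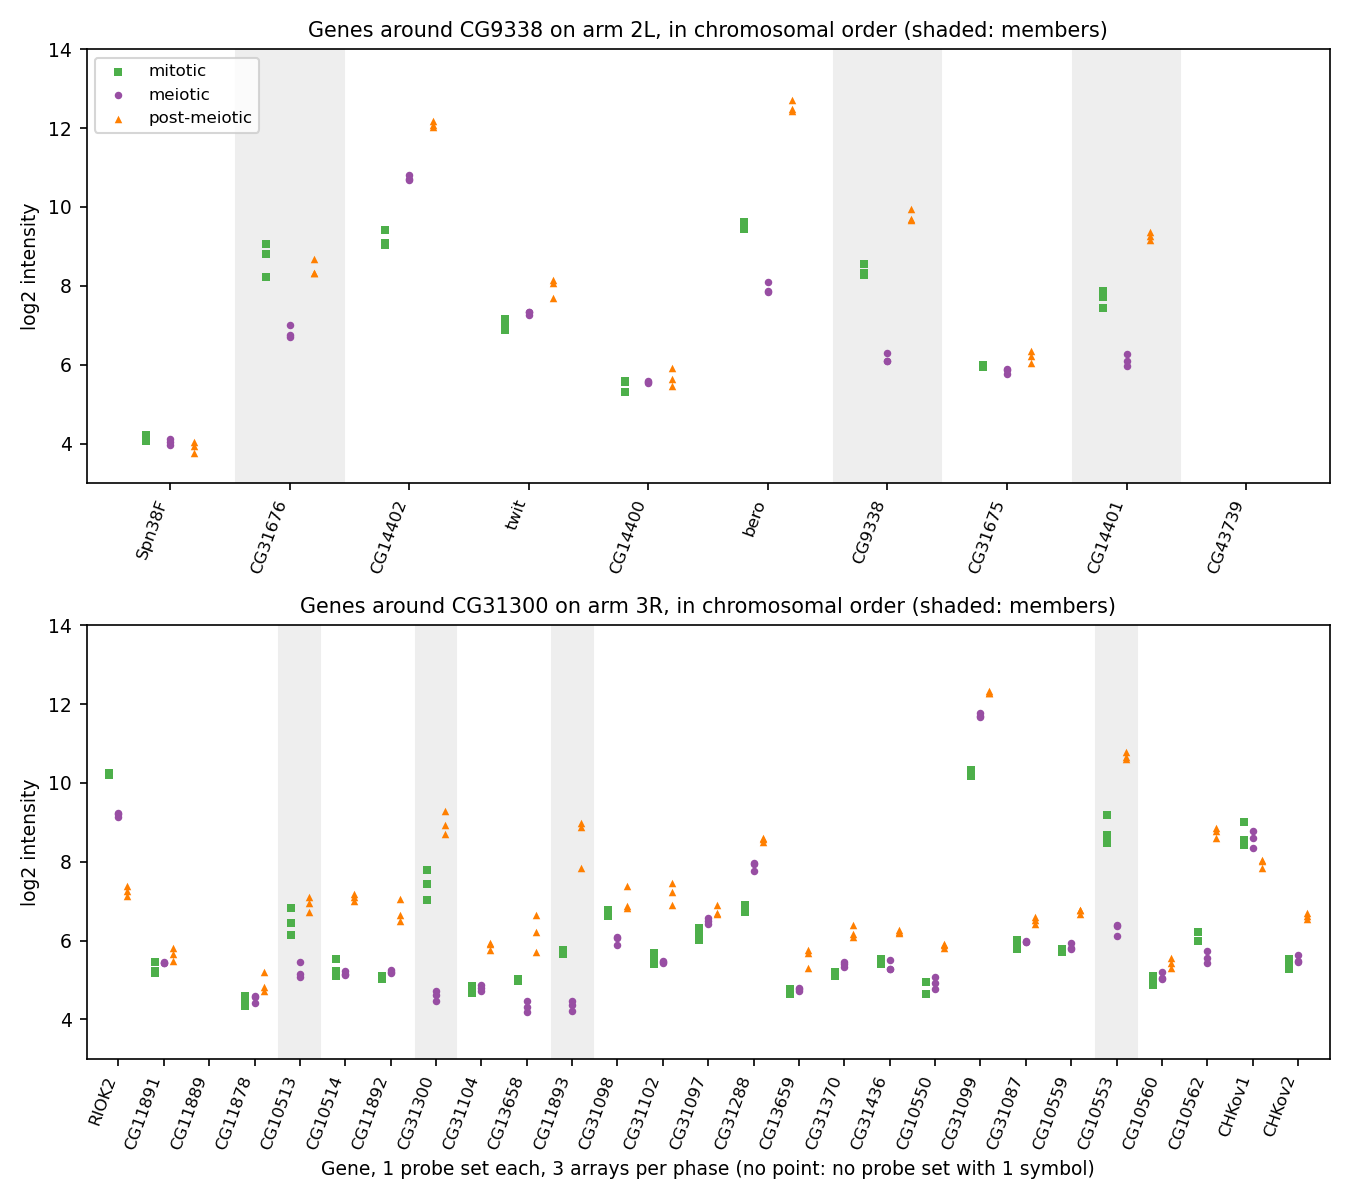
Log2 intensity on each array (y axis; 3 mitotic squares, 3 meiotic circles, 3 post-meiotic triangles per gene) for genes in chromosomal order around CG9338 on arm 2L (top) and CG31300 on arm 3R (bottom). Members are shaded, and a gene without points had no probe set with 1 symbol. In the shaded columns the meiotic circles lie lowest, while most unshaded genes show no such gap, bero being an exception with means of 9.50, 7.94 and 12.55.

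Over the genome as a whole, 8 pairs of members had up to 5 genes between them, of which 1 pair was adjacent. Of 127 measured genes that directly flank a member and are no member themselves, 2 (1.57%) had a meiotic minimum with a depth of at least 1, against 307 of the 11716 measured genes that are no member (2.62%), too few to read a difference from. The 2 are bero and babos.

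On the chromosome arms, 17 members were X-linked, 18 on 2L, 10 on 2R, 13 on 3L, 19 on 3R and 0 on chromosome 4. The X thus held 22.1% of members, against 17.5% of the 5581 probe sets for CG-numbered genes with a known arm, and arm 2R held 12.99% against 19.2%. Among the X-linked members, 10 were higher in post-meiosis than in mitosis, 3 lower and 4 not called, beside 55.0% higher and 28.4% lower among all probe sets of CG-numbered genes. The deepest X-linked minimum was that of CG12576, with 7.61, 8.02 and 7.71 on mitotic, 5.61, 5.69 and 5.66 on meiotic and 8.33, 7.91 and 8.08 on post-meiotic arrays. Its post-meiotic and mitotic arrays overlapped, and the difference of 0.33 passed the test only narrowly (SE 0.12, limma adjusted p = 0.025; 0.55 under cyclic loess). After centring of each array on its median it was 0.24 and did not pass (adjusted p = 0.1004), and without mitotic replicate 1 it was 0.24 (adjusted p = 0.113), without mitotic replicate 3 it was 0.29 (0.081) and without post-meiotic replicate 1 it was 0.21 (0.097).

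CG44325, also on the X, gave 9.37, 9.61 and 9.51 on mitotic, 7.98, 7.75 and 8.27 on meiotic and 11.04, 10.64 and 10.76 on post-meiotic arrays with no overlap between phases, and a post-meiotic excess over mitosis of 1.32 (SE 0.13, limma adjusted p = 1.1e-06). CG3638, whose synonym TTYH2 marks it as a homologue of the tweety family of chloride channel proteins, gave 6.67, 6.67 and 6.51 on mitotic, 5.35, 5.15 and 5.05 on meiotic and 7.26, 6.61 and 6.90 on post-meiotic arrays. Its post-meiotic arrays overlapped with mitosis, and the difference of 0.31 did not pass (adjusted p = 0.060), while it passed without post-meiotic replicate 2 (0.47, adjusted p = 0.0055) and with a replicate block (adjusted p = 0.030). Under cyclic loess its sign was turned (-0.046, adjusted p = 0.825).

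The 4 members with the highest meiotic signal show the minimum well above the dim end of the arrays. CG6770, with the synonym p8, is a homologue of a small stress-induced nuclear protein. It gave 11.44, 11.43 and 11.23 on mitotic, 9.91, 9.91 and 9.82 on meiotic and 11.86, 11.62 and 11.73 on post-meiotic arrays, with post-meiosis higher than mitosis by 0.37 (SE 0.09, limma adjusted p = 0.0023). CG7194 averaged 10.97 ± 0.18 in post-meiosis and 11.03 ± 0.13 in mitosis, with 9.71 ± 0.15 in meiosis (SD, n = 3 each), and CG1943 averaged 10.60 ± 0.15, 10.58 ± 0.08 and 9.58 ± 0.13 in the same order. The post-meiotic difference did not pass for either (adjusted p = 0.659 and 0.875). Under cyclic loess it was 0.24 for CG7194, with the sign turned and not called (adjusted p = 0.071), and CG1943 was called higher (0.41, adjusted p = 0.0020).

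CG7611, a WD40 repeat gene with the synonym WDR26, gave 9.72, 9.48 and 9.53 in post-meiosis, against 10.06, 10.07 and 9.88 in mitosis, with 8.30, 8.14 and 8.43 in meiosis. Post-meiosis was lower by 0.43 (difference -0.43, SE 0.10, adjusted p = 0.0019), a direction that was reversed under cyclic loess (0.26, adjusted p = 0.037).

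Other members with a known family lay between these extremes. CG46339, with the synonym slamdance, is an aminopeptidase gene, and it averaged 7.35, 5.61 and 8.47 in developmental order. CG6707, for a phosphatase of phosphoinositides, averaged 9.05, 7.42 and 9.85, and CG31637, for a carbohydrate sulfotransferase, averaged 6.08, 4.92 and 7.35. These 3 were higher in post-meiosis than in mitosis (limma adjusted p of 8.3e-06, 9.1e-05 and 5.2e-06), with CG6707 at 0.79, or 1.58 under cyclic loess. CG9281, of the ABCF group of ATP-binding proteins that act on ribosomes and carry no membrane segment, averaged 7.51, 5.97 and 7.04 and was lower in post-meiosis than in mitosis (difference -0.46, adjusted p = 0.0078).

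Several probe sets of a gene did not always agree. The suffix of a probe set tells whether its probes are unique (48 members), shared by transcripts of a gene (10) or possibly shared between genes (19), and a reading of the last kind can include related transcripts. The 6 member genes with further probe sets had 7 of these outside the rule. For CG17124 and CG5953 the further probe set also had its lowest mean in meiosis, with depths of 0.82 and 0.68, so that all their probe sets pointed the same way. For CG42748, CG43658 and CG43897 the further probe sets averaged under 6 and had no minimum in meiosis. CG12054 differed most, since its member probe set averaged 6.83, 5.55 and 7.32 while the other 2 had their highest mean in mitosis and their lowest in post-meiosis (7.44, 6.61 and 5.97, and 8.68, 8.23 and 7.37).

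The minimum was also read in arrays left out of the choice, as a description without a test. Probe sets of CG-numbered genes were chosen by the same thresholds on arrays of only 2 replicate numbers, and the third number was then read. The sets so chosen are not the 77 members. All 9 arrays were normalized together and replicates resembled each other closely (r of 0.993 to 0.998), so the left-out arrays are no independent test. A lowest value in them was nearly fixed by the choice. The replicate numbers only group the arrays here, since they did not pair them. With replicate 1 left out, 74 probe sets were chosen, all 74 had their lowest value on the left-out meiotic array, and 65 did so by at least 1 log2 unit. With replicate 2 left out the counts were 75, 75 and 65, and with replicate 3 left out 84, 84 and 63. Of all 5667 CG probe sets, 85, 81 and 69 had a minimum of at least 1 in the left-out arrays. The number of these lowest there by any amount was not counted. The median depth in the left-out arrays was 1.31, 1.41 and 1.26.

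Markers of somatic cells shared the pattern of the members to different degrees. In the list of testis sheath muscle genes, 11 of 13 measured genes had their lowest mean in meiosis, 7 of them by at least 1, against 2.84% of all probe sets. In meiosis compared with mitosis, 10 were lower, 2 higher (sls and Act87E) and 1 was not called (limma, with 26.3% of all probe sets lower and 24.3% higher), in post-meiosis compared with meiosis 12 were higher and 1 lower (37.8% and 27.8% of all probe sets), and in post-meiosis compared with mitosis all 13 were higher (49.6%). Mlc1, a myosin light chain gene, gave 8.50, 8.70 and 8.05 on mitotic, 6.04, 5.89 and 6.06 on meiotic and 10.78, 10.86 and 11.07 on post-meiotic arrays. The summed level of the list, on the log2 scale, ranged from 11.57 to 11.96 over the mitotic, 12.30 to 12.47 over the meiotic and 13.98 to 14.11 over the post-meiotic arrays, a sum that gives most weight to bright probe sets such as that of Act87E (means of 10.19, 11.74 and 12.95). Of the 13, the number averaging under 6 was 3 in mitosis, 7 in meiosis and 0 after meiosis.

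Of 13 hub and cyst cell genes, 6 were lowest in meiosis (19.8% of all probe sets) and 3 by at least 1 (2.84%). The 3 are puc, dlg1 and Stat92E. Others did not share the minimum, such as zfh1, which fell at both steps (7.37, 5.61 and 5.32), and CadN, highest in meiosis (7.60, 8.63 and 8.12). In post-meiosis compared with meiosis 5 were higher, 4 lower and 4 not called (limma, 37.8% and 27.8% of all probe sets). In post-meiosis compared with mitosis 4 were higher, 5 lower and 4 not called (49.6% and 29.5%). The summed level of the list ran from 11.79 to 11.998, 11.69 to 11.74 and 11.13 to 11.47 in the phases in developmental order. Means under 6 were found for 3, 5 and 3 of the 13 in the same order. Of 11 blood cell genes, 5 were lowest in meiosis and 1 by at least 1 (19.8% and 2.84% of all probe sets). The latter was crq, with means of 7.35, 6.08 and 9.67. The summed level of the blood cell list was 10.13 to 10.25, 9.90 to 9.97 and 11.19 to 11.34, with 5, 4 and 3 averaging under 6. The part of hub, cyst and blood cells in the members' values was not tested.

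Lists for pigment and terminal epithelium cells (6 measured), fat body (7), accessory gland and duct (11) and neurons (8) were also read. None of their genes had a meiotic minimum of at least 1, against 2.84% of all probe sets. Beside so small a share, lists this short cannot show an absence. Lowest in meiosis by any amount were 3 of 6, 2 of 7, 4 of 11 and 3 of 8 in the same order (19.8% of all probe sets). In the germline lists this held for 0 of 6 stem cell and spermatogonial, 0 of 13 spermatocyte and 0 of 10 spermatid genes. All 6 stem cell and spermatogonial genes were lower in meiosis than in mitosis (26.3% of all probe sets). All 10 spermatid genes were higher (24.3%), and 9 were under cyclic loess (22.7%). Spermatocyte genes divided in meiosis compared with mitosis into 5 higher, 5 lower (aly, can, nht, Rbp4 and comr) and 3 not called. They thus did not separate the meiotic from the mitotic region, while all 13 were lower in post-meiosis than in meiosis (27.8% of all probe sets). In the same comparison 5 spermatid genes were higher, 3 lower (Mst77F, wa-cup and Dic61B) and 2 not called. Over all probe sets 37.8% were higher and 27.8% lower, and 10 genes are too few to read a difference from these shares.

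**Figure D5:**
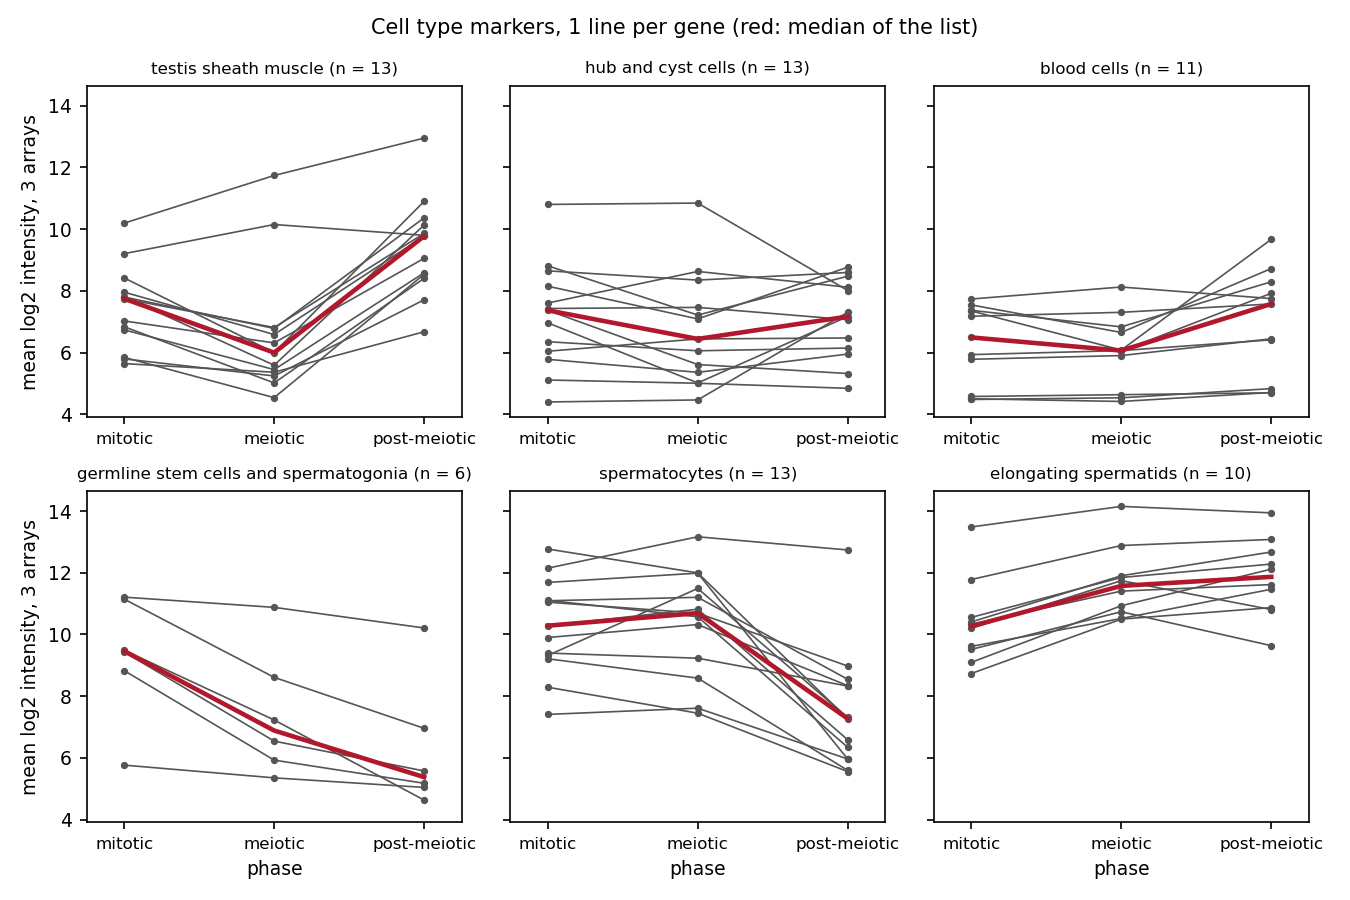
Mean log2 intensity (y axis, 3 arrays each) in mitosis, meiosis and post-meiosis for genes of 6 marker lists, with a thin line per gene and the list median in red. A dip in meiosis is seen for 11 of 13 sheath muscle genes, against 19.8% of all probe sets. It is seen for 6 of 13 hub and cyst cell and 5 of 11 blood cell genes. The lists for spermatogonia, spermatocytes and spermatids hold 0 such genes.

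Named relatives of the deepest member differed in the same respect. Of 7 measured sugar transporter genes with a name, 7 were higher in post-meiosis than in mitosis (49.6% of all probe sets), with a median of 1.56, and also 7 under cyclic loess (31.3%), but only Tret1-1, a trehalose transporter gene, had a meiotic minimum of at least 1. Tret1-1 gave 7.45, 7.57 and 7.47 on mitotic, 5.85, 6.32 and 6.14 on meiotic and 9.07, 9.03 and 9.08 on post-meiotic arrays, a depth of 1.39 against 4.15 for CG33281. Tret1-2, sut3 and sut4 were instead higher in meiosis than in mitosis.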

How the data were processed

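The table held 9 arrays, 3 per testis region. Values were deposited on the log2 scale: the authors corrected the hybridization intensities for background by RMA in R (version not given in the sources used here) and quantile normalized the arrays, without pooling replicates. Of 18952 probe sets, 183 Affymetrix controls were left out. Symbols came from the array annotation, and arms, synonyms and gene order from RefSeq (assembly Release 6), without coordinates because the build of the array is not named in the sources used here. Arrays give no read depth, so their number limits the precision.

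The values were fitted with limma 3.58.1 (lmFit and eBayes, 9 arrays, 3 phases, R 4.3.3), two-sided, with Benjamini-Hochberg adjustment over 18769 probe sets and a threshold of 0.05. The fit was checked on simulated data. Tables and figures were made with Python 3.11.15, numpy 2.4.6, pandas 2.3.3 and matplotlib 3.10.9. In lists, a gene is read by its probe set with the highest mean, summed levels are log2 of summed linear intensities, and 6 marks a dim mean. The shares beside lists and families are over all probe sets. Read by 1 probe set per gene, 3.21% of genes had a meiotic minimum of at least 1, against 2.84% of all probe sets.

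Members and lists were chosen with earlier results of these data known. Genes named are the 10 members with the largest depth, the 6 largest and 6 smallest post-meiotic minus mitotic differences, the 4 highest meiotic means, the 2 probe sets on each side of the threshold, adjoining members and the 3 deepest X-linked members. A ranking of members by protein identity was not made. Other genes were named after their values were seen. Alternatives were a replicate block, centred arrays, cyclic loess, a mean of at least 6, 1 probe set per gene, no probe sets with the suffix _s_at or _x_at, thresholds of 0.8 and 1.5 in the rule, and leaving out each array. For members outside the rule above and for the gene lists, the alternatives were added after the data had been seen.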

Additional observations from a re-analysis of the deposited data

How the results depend on the processing

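The 77 members became 108 at a threshold of 0.8 and 27 at 1.5. The rule found 69 probe sets on centred arrays, all among the 77, 68 under cyclic loess (61 shared), 74 with a mean of at least 6, 58 without shared probe sets, and 73 to 82 with 1 array left out. Members higher in post-meiosis than in mitosis numbered 52 as deposited, 48 on centred arrays, 60 under loess, 50 of 74 with a mean of at least 6, 47 of 71 with 1 probe set per gene, 41 of 58 without shared probe sets and 48 to 53 with 1 array left out. Members lower numbered 12, 12, 9, 12, 11, 6 and 12 to 13 in the same order. The member median was 0.76 on centred arrays, 1.30 under loess and 0.78 to 0.95 with 1 array left out. Loess moved the median of all probe sets from 0.21 to 0.014, and centring moved it to 0.13 (41.7% of all probe sets higher, 30.9% lower). With a mean of at least 6 the median of all tested probe sets was -0.0048 (44.7% higher, 46.0% lower). The shares were 46.3% higher and 38.1% lower with 1 probe set per gene, and 50.3% and 28.7% without shared probe sets. The replicate numbers did not pair the arrays, as 1 of 9 correlations of same-numbered deviations was over 0.1 (range -0.086 to 0.36), and the fit with the replicate block gave 52 higher and 12 lower, with 2 calls lost and 2 gained.

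The sign of a small difference was turned for CG3638 (-0.046) and CG7194 (0.24) under loess, for CG7611 (0.26), CG8778 (0.29) and CG31676 (0.42) under loess, and on centred arrays for CG1943 (-0.065) and CG9674 (-0.072). With 1 array left out, CG7194 ranged from -0.16 to 0.015, positive without post-meiotic replicate 2, and CG1943 from -0.067 to 0.072, and CG9674 from -0.069 to 0.12, both negative without mitotic replicate 1 or 3 or post-meiotic replicate 1. CG1943 was called higher under loess (0.41, adjusted p = 0.0020), and CG3638 with the block (0.31, adjusted p = 0.030). The cause of these changes was not tested. Of 801 comparisons of a named member probe set with an alternative, 759 kept direction and side of the threshold. Quantile normalization brings arrays towards a common distribution, so a change in total RNA between regions cannot be read. The medians of the deposited arrays still differed, from 6.36 (meiotic replicate 2) to 6.54 (post-meiotic replicate 3). Differences of members whose mean lies near the dim end may be understated.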

Other observations

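Genes of lipid metabolism outside the members also held meiotic minima, given here as values. Of 12 measured genes of fatty acid synthesis and storage, 3 had a minimum of at least 1 (2.84% of all probe sets). Lsd-2, a lipid droplet protein gene, averaged 8.07, 6.49 and 9.37 in mitosis, meiosis and post-meiosis, and Acsl, for an enzyme that activates long-chain fatty acids, 5.80, 4.31 and 7.18. FASN1, the fatty acid synthase gene, averaged 10.48, 9.23 and 10.59. Others of the list, such as ACC (9.94, 10.30 and 8.90) and Agpat3 (10.17, 10.35 and 9.13), were highest in meiosis. Of 6 measured genes of mitochondrial fatty acid oxidation, 5 were lowest in meiosis (19.8% of all probe sets) and 2 by at least 1 (2.84%). These 2 were scu (10.00, 8.46 and 9.54) and yip2 (9.41, 8.25 and 10.38). In post-meiosis compared with mitosis, 6 genes of synthesis and storage were higher, 3 lower and 3 not called, close to the shares over all probe sets (49.6% higher, 29.5% lower), and 4 genes of oxidation were higher and 2 lower (limma). Under cyclic loess the counts were 7, 4 and 1, and 4 higher, 0 lower and 2 not called.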
